A study of Mus musculus with 8 samples.

Results

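The potassium channel genes were taken as the protein-coding genes whose symbol begins with Kcn, a family letter or letters and a number, and that had at least 10 counts in at least 2 of the 8 brain libraries. Of 54532 genes in the deposited table, 93 fitted the symbol and 82 met the count minimum. By their annotated roles 60 of the 82 encode pore-forming subunits, 9 encode silent voltage-gated subunits that form channels only with another subunit, and 13 encode auxiliary subunits. The 11 genes under the minimum were Kcna7, Kcna10, Kcne1, Kcne3, Kcnj1, Kcnj15, Kcnk7, Kcnk16, Kcnk18, Kcnmb3 and Kcnv2. All 82 genes passed the filter on low counts and were tested.

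RNA was sequenced from brains of PBS-perfused mice in 4 groups of 2 libraries each: CAA stress, CAA mock, WT stress and WT mock. CAA (cerebral amyloid angiopathy) is the deposition of amyloid-beta in the walls of cerebral vessels, and CAA mice and wild-type (WT) mice were either put through chronic restraint stress or mock-treated. The study asked how chronic stress acts on the disease and on neutrophil extracellular traps. The strain or transgene behind the CAA label, the age and sex of the mice, the length of the stress and the part of the brain taken are given nowhere in the labels, so no targeted gene could be used to check the labels. Each library carries its group's name and the number in its title (CAA mock 2).

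Potassium channels let potassium ions leave or enter cells and so set the resting potential, end the action potential and tune the rate of firing. Voltage-gated families (Kv1 to Kv4, the M-type Kcnq channels and the EAG, ERG and ELK channels of the Kcnh genes) open on depolarisation. Calcium- and sodium-activated channels (Kcnma1, Kcnn and Kcnt genes) respond to ions that enter during firing, and tandem-pore leak channels (Kcnk) are open near rest. Inward rectifiers (Kcnj) hold the resting potential, and one of them, Kcnj10, carries potassium uptake by astrocytes.

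The feature that the pore-forming genes share, and that the symbols did not use, is the selectivity filter, a short stretch of the pore loop whose backbone coordinates potassium ions. Its core of glycine, tyrosine or phenylalanine, and glycine is written in 3 codons, GGNTANGGN or GGNTTNGGN, which were searched for in frame on the coding strand of GENCODE vM21 coding sequences (the second spelling also allows leucine). An in-frame match was present in 60 of 60 pore-forming genes, 9 of 9 silent subunits and 0 of 13 auxiliary genes, that is in 84.1% of the 82 genes, against 3588 of 21539 protein-coding genes (16.7%). A match outside the pore is possible. The sequences below (mm10, coding strand, 30 bases each, the 3 codons in capitals) belong to some of the genes named later. They show the tyrosine form in Kcna4 and Kcnj10 and the phenylalanine form in the Kcnh and Kcnt genes.
Kcnh7 (chr2:62777343-62777351, minus strand): ctaaccagtgtaGGATTTGGAaatgtgtct
Kcnh4 (chr11:100750293-100750301, minus strand): ctcaccagtgtaGGCTTCGGCaacgtgtgt
Kcnt2 (chr1:140425284-140425292, plus strand): ttttctactgtgGGCTTTGGGgatgtcact
Kcnt1 (chr2:25894373-25894381, plus strand): ttctcaactgtgGGCTTCGGTgatgtgacg
Kcna4 (chr2:107296501-107296509, plus strand): atgacaactgtgGGCTATGGGgacatgaag
Kcnj10 (chr1:172369308-172369316, plus strand): cagaccaccatcGGCTATGGCttccgctac
GGNTTNGGN was held by all 8 Kcnh genes and both Kcnt genes, and GGNTANGGN by all 5 Kcnq genes and all 6 Kv1 genes.

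Libraries held 17275201 to 18894657 counts. The 82 genes together took 0.503% and 0.554% of counts in CAA stress, 0.455% and 0.467% in CAA mock, 0.526% and 0.519% in WT stress and 0.568% and 0.511% in WT mock, so both CAA mock libraries lay below the other 6. CAA stress 1 and WT mock 1 were female by Xist (3340 and 4575 counts, against 0 to 24 in the others). All 12 excitatory neuron markers and all 12 astrocyte markers had counts in every library. Gabra6 of cerebellar granule cells had 0 to 8 counts and Hoxa5 of the caudal brainstem had 0 in all. These do not stand for their lists, of which 3 of 10 cerebellar and 6 of 9 brainstem genes had 0 counts in some library. Cbln1 of the cerebellar list had 160 to 622 counts. Tph2 of the brainstem list had 223 counts in CAA mock 2 and 168 in CAA stress 1, against 4 to 26 in the others. The summed level of 12 striatal markers is given in CPM (counts as a rate per library, after TMM normalisation). It was 456 CPM in CAA mock 2 and 547 CPM in WT mock 1, against 1354 to 2277 CPM in the other 6 libraries. CAA mock 2 and WT mock 1 are called the low-striatum pair. Hypothalamic markers were also lowest in this pair, at 34.5 and 19.5 CPM, against 81.3 to 188 CPM in the other 6. Olfactory bulb markers were lowest in WT mock 1 (44.4 CPM). Omission of the pair thus does not set aside striatal differences alone.

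In levels per length (FPKM, fragments scaled to gene length and library size), the 13 auxiliary genes summed to 208 to 251 FPKM per library, the 60 pore-forming genes to 535 to 655 FPKM and the 9 silent subunits to 42.1 to 87.3 FPKM. Of the 82 genes 27 had a median of at least 10 FPKM, 41 lay between 1 and 10 FPKM, and 14 lay under 1 FPKM. Kcnab2, a cytoplasmic beta subunit of Kv1 channels, was highest at a median of 90.0 FPKM (79.8 to 110). The inward rectifier Kcnj4 followed at 63.6 FPKM (22.8 to 71.7) and Kcnj10 at 59.0 FPKM (43.1 to 106); their ranges over libraries overlapped, so the order of these 2 is not separated by the spread.

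Several voltage-gated pore genes that led their families lay close together. Kcnh3 of the ELK group had a median of 29.1 FPKM (12.3 to 34.9), the Kv3 gene Kcnc4 25.4 FPKM (18.6 to 28.3) and the A-type Kv4 gene Kcnd2 23.7 FPKM (19.4 to 28.6). The Kv1 gene Kcna2 had 19.7 FPKM (12.9 to 25.8). Neighbours in this order overlapped over the libraries. Kcna1, the partner of Kcna2 along axons, had 9.08 FPKM (7.84 to 12.4), the M-type gene Kcnq3 10.6 FPKM (8.68 to 14.2), and the Kv3 gene Kcnc1 15.3 FPKM (13.1 to 18.9).

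The leak channel gene Kcnk1 had a median of 41.6 FPKM (34 to 48), above its relatives Kcnk13 at 3.54 FPKM (2.45 to 4.79) and Kcnk6 at 1.39 FPKM (0.696 to 1.76) without overlap. The large-conductance calcium-activated gene Kcnma1 had 12.1 FPKM (9.26 to 14.5) and its brain beta subunit Kcnmb4 2.88 FPKM (2.41 to 4.05). The small-conductance gene Kcnn1 (3.73 FPKM, 3.14 to 4.74) and Kcnn2 (3.68 FPKM, 2.51 to 4.54) could not be separated. The sodium-activated gene Kcnt1 had 7 FPKM (5.09 to 9.99). Kcnu1, whose channel is known from sperm, had 0.884 FPKM (0.619 to 1.26).

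The calcium sensors that bind Kv4 channels, Kcnip3, Kcnip2 and Kcnip4, had medians of 37.5 FPKM (35.6 to 47.2), 28.6 FPKM (19 to 40.3) and 15.6 FPKM (12.8 to 19.4). The beta subunit Kcnab1 had 14.2 FPKM (11.6 to 18). Of the silent subunits Kcnf1 had 30.7 FPKM (11.1 to 35.2), Kcnv1 16.9 FPKM (8.08 to 27.4), Kcns2 6.89 FPKM (4.77 to 10.1) and Kcng1 5.12 FPKM (2.93 to 6.66). Kcne1l, the most abundant of 3 KCNE genes, had 5.32 FPKM (3.64 to 10.1). Inward rectifiers of the vessel wall were low, with Kcnj2 at 2.18 FPKM (1.61 to 4.10) and Kcnj8, the pore of the pericyte ATP-sensitive channel, at 1.25 FPKM (0.786 to 1.61).

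**Figure D1:**
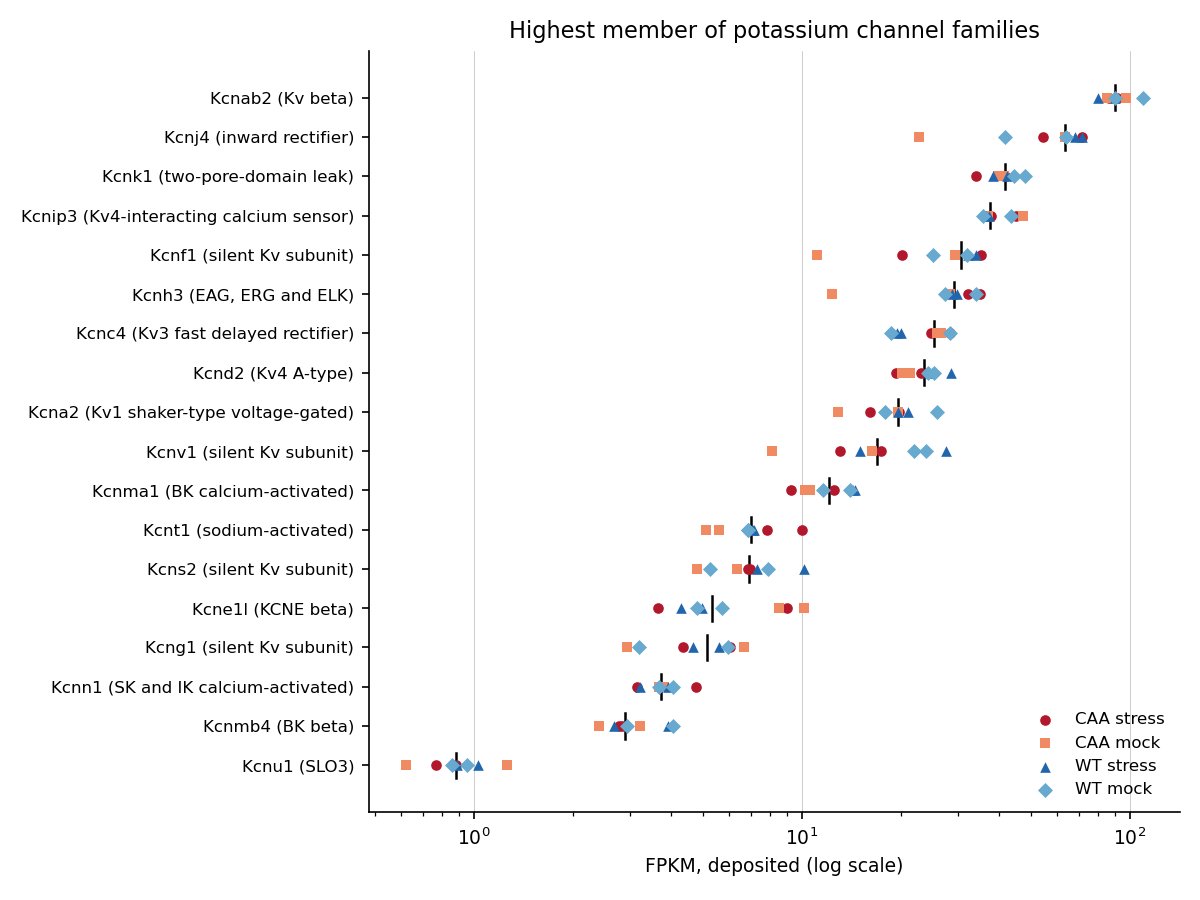
Deposited FPKM on a log axis for the gene with the highest median of 18 symbol families of the 20, with the family in brackets, 1 point per library by group and a black bar at the median. Kcnab2 stands highest at 90.0 FPKM and Kcnu1 lowest at 0.884 FPKM, and for Kcnj4, Kcnf1 and Kcnh3 CAA mock 2 lies apart on the low side.

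Between libraries 46 of the 82 genes ranged over more than 2-fold, and the median range was 1.08 on the log2 CPM scale. CAA mock 2 was the lowest library for 25 genes and CAA mock 1 for 15, whereas the other 6 were lowest for 2 to 11 each. The matching counts over all genes are not given here, so these do not set the channel genes apart from other genes. The most variable gene of at least 1 mean CPM was Kcne2, a single-pass beta subunit abundant in the choroid plexus. Kcne2 had 2.67 and 0.161 CPM in CAA stress, 2.28 and 0.225 CPM in CAA mock, 0.219 and 4.13 CPM in WT stress and 0.646 and 0.168 CPM in WT mock. It was high in 1 library of each of 3 groups. The 16 choroid plexus markers, which do not include Kcne2, summed to 819 and 175 CPM in CAA stress, 409 and 251 CPM in CAA mock, 216 and 1020 CPM in WT stress and 275 and 203 CPM in WT mock, so the 3 libraries highest in Kcne2 were also the 3 highest in these markers. Kcnj13, the inward rectifier of the choroid plexus epithelium, had 30 and 5 counts in CAA stress, 2 and 8 counts in CAA mock, 11 and 32 counts in WT stress and 11 and 0 counts in WT mock. It overlaps Gigyf2, a gene with 7742 counts, by 8367 bases on the other strand, and the labels do not say whether reads were counted by strand.

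Kcna5, a Kv1 gene, and Kcnj4 were lowest in the low-striatum pair. Kcna5 had 15.3 and 11.3 CPM in CAA stress, 13.1 and 2.99 CPM in CAA mock, 11.8 and 11.5 CPM in WT stress and 1.94 and 14.1 CPM in WT mock. Its 2 low libraries were CAA mock 2 and WT mock 1. Kcnj4 was lowest in the same 2 libraries, with 118 and 156 CPM in CAA stress, 138 and 49.3 CPM in CAA mock, 148 and 156 CPM in WT stress and 90.3 and 139 CPM in WT mock. In this bulk tissue fewer cells of a type and less RNA per cell cannot be told apart.

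CAA mock 2 was lowest for Kcnh4, an ELK channel gene, and for Kcnf1. Kcnh4 had 11.0 and 11.6 CPM in CAA stress, 7.01 and 2.20 CPM in CAA mock, 11.1 and 9.87 CPM in WT stress and 13.8 and 13.2 CPM in WT mock. Kcnf1 had 98.4 and 171 CPM in CAA stress, 142 and 53.5 CPM in CAA mock, 165 and 155 CPM in WT stress and 121 and 155 CPM in WT mock. Kcng4, another silent subunit, was highest in CAA mock 2, at 17.2 and 8.04 CPM in CAA stress, 8.53 and 26.1 CPM in CAA mock, 7.94 and 10.5 CPM in WT stress and 15.4 and 8.76 CPM in WT mock. The brainstem list, of which 5 genes were tested, summed to 40.2 CPM in CAA mock 2 and 30.3 CPM in CAA stress 1, the 2 libraries highest in Kcng4, against 7.16 to 11.8 CPM in the others.

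The silent subunit gene Kcnv1 had 61.0 and 80.6 CPM in CAA stress, 76.1 and 37.3 CPM in CAA mock, 127 and 69.7 CPM in WT stress and 111 and 102 CPM in WT mock, again lowest in CAA mock 2. Kcna3, a Kv1 gene also known from lymphocytes and microglia, had 3.27 and 7.39 CPM in CAA stress, 2.98 and 1.86 CPM in CAA mock, 4.49 and 2.81 CPM in WT stress and 4.03 and 4.94 CPM in WT mock. Kcnj5, a G-protein-gated inward rectifier, ranged between 1.04 CPM in WT stress 1 and 3.87 CPM in CAA stress 1, and Kcne4, a KCNE beta subunit, between 0.617 CPM in WT mock 2 and 2.34 CPM in CAA stress 1. Both were thus highest in CAA stress 1.

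**Figure D2:**
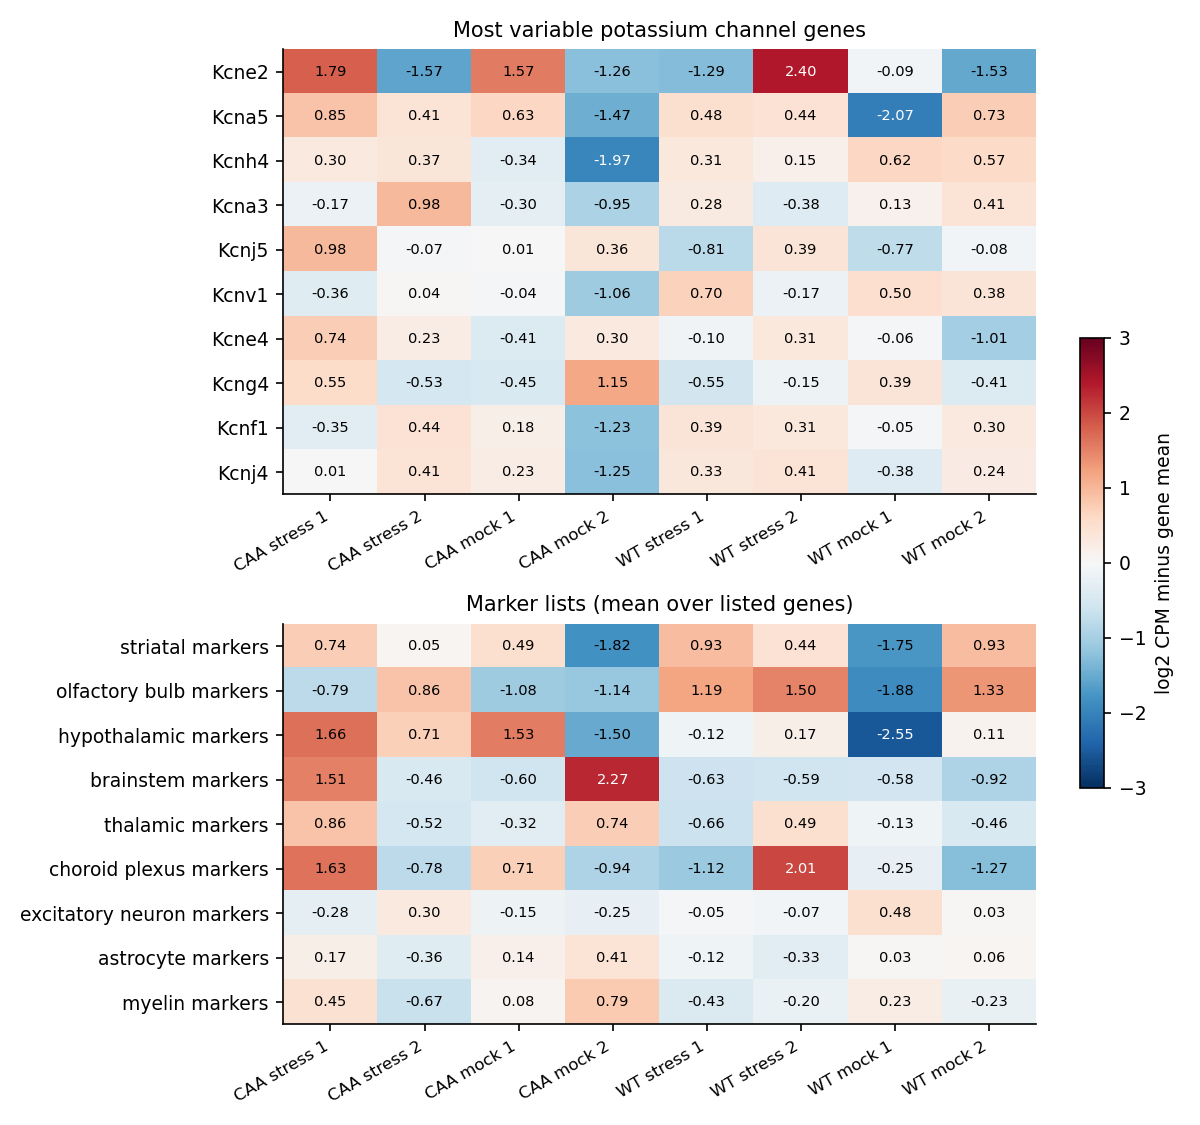
Log2 CPM of the 10 most variable potassium channel genes (above) and mean log2 CPM of marker lists (below) in each library, each gene centred on its mean over the 8 libraries, in red where higher and blue where lower. Kcne2 and the choroid plexus list are highest in WT stress 2 (2.40 and 2.01), and Kcna5 and the striatal list are lowest in CAA mock 2 and WT mock 1.

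Astrocyte channel genes were also uneven between replicates. Kcnj10 had 444 and 236 CPM in CAA stress, 310 and 576 CPM in CAA mock, 258 and 304 CPM in WT stress and 471 and 334 CPM in WT mock. Its highest library was 576 CPM in CAA mock 2, also the highest in the sum of 12 astrocyte markers (8377 CPM, against 5857 to 7671 CPM in the other 7). Kcnj16, which forms mixed channels with Kcnj10, had 50.8 and 32.5 CPM in CAA stress, 56.5 and 65.5 CPM in CAA mock, 49.9 and 36.9 CPM in WT stress and 55.2 and 55.3 CPM in WT mock.

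Across both treatments no potassium channel gene passed in CAA against WT brains (0 of 82 by edgeR's quasi-likelihood test with Benjamini-Hochberg adjustment over 17182 genes, threshold 0.05, where 0.0116% of all genes passed). Without adjustment, 3 genes were higher and 12 lower in CAA at p under 0.05 (4.25% and 4.12% of all genes), or 18.3% of the 82 genes in both directions. The median log2 fold change of the 82 genes was -0.08, with 33 positive and 49 negative, and that of all genes was 0.00; without CAA mock 1 it was -0.14. Over the same comparison the myelin markers were positive in 12 of 12 and the excitatory neuron markers negative in 10 of 12. Other lists shifted too. Positive were 10 of 11 oligodendrocyte precursor markers (5 at that p), 12 of 13 hypothalamic and 11 of 12 thalamic markers. Endothelial markers were negative in 11 of 12, while interneuron, microglia and mural markers were evenly split. The part of these lists in the channel values was not tested. DESeq2 called 2 of the 82, Kcnh7 and Kcnt2, both lower in CAA (0.268% of all genes). All 4 CAA libraries lay below all 4 WT libraries for 3 of the 82 genes, Kcna4, Kcnd2 and Kcnt2 (2.76% of all genes), and above them for 0 (2% of all genes).

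The sodium-activated channel gene Kcnt2 (ENSMUSG00000052726, chromosome 1, 140246158 to 140612067, plus strand, mm10) had 19.4 and 25.5 CPM in CAA stress, 24.3 and 25.7 CPM in CAA mock, 34.7 and 30.04 CPM in WT stress and 44.9 and 38.0 CPM in WT mock. Every CAA library lay below every WT library. The means were 23.7 ± 2.95 CPM in CAA and 36.9 ± 6.26 CPM in WT (SD, n = 4), a log2 fold change of -0.63 ± 0.13 (SE; edgeR adjusted p = 0.450, DESeq2 adjusted p = 0.0312). The ERG channel gene Kcnh7 (ENSMUSG00000059742, chromosome 2, 62693414 to 63184287, minus strand) had 71.0 and 107 CPM in CAA stress, 54.6 and 63.0 CPM in CAA mock, 134 and 107 CPM in WT stress and 136 and 105 CPM in WT mock. CAA stress 2 lay within the WT range, and the fold change was -0.73 ± 0.16 (SE; edgeR adjusted p = 0.450, DESeq2 adjusted p = 0.00681). Kcnh7 overlaps Gca on the other strand by 696 bases.

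Kcna4, an A-type Kv1 gene, had 16.1 and 15.9 CPM in CAA stress, 13.3 and 13.9 CPM in CAA mock, 24.4 and 21.8 CPM in WT stress and 16.9 and 21.3 CPM in WT mock. The CAA libraries again lay below the WT libraries without overlap, by -0.51 ± 0.14 on the log2 scale (SE; edgeR adjusted p = 0.508). The M-type gene Kcnq5 had 70.7 and 91.4 CPM in CAA stress, 65.5 and 42.1 CPM in CAA mock, 102 and 94.7 CPM in WT stress and 98.0 and 90.8 CPM in WT mock. Its groups overlapped at CAA stress 2 (log2 fold change -0.54 ± 0.15 SE, edgeR adjusted p = 0.508). Kcnq5 overlaps a pseudogene on its own strand by 1124 bases.

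**Figure D3:**
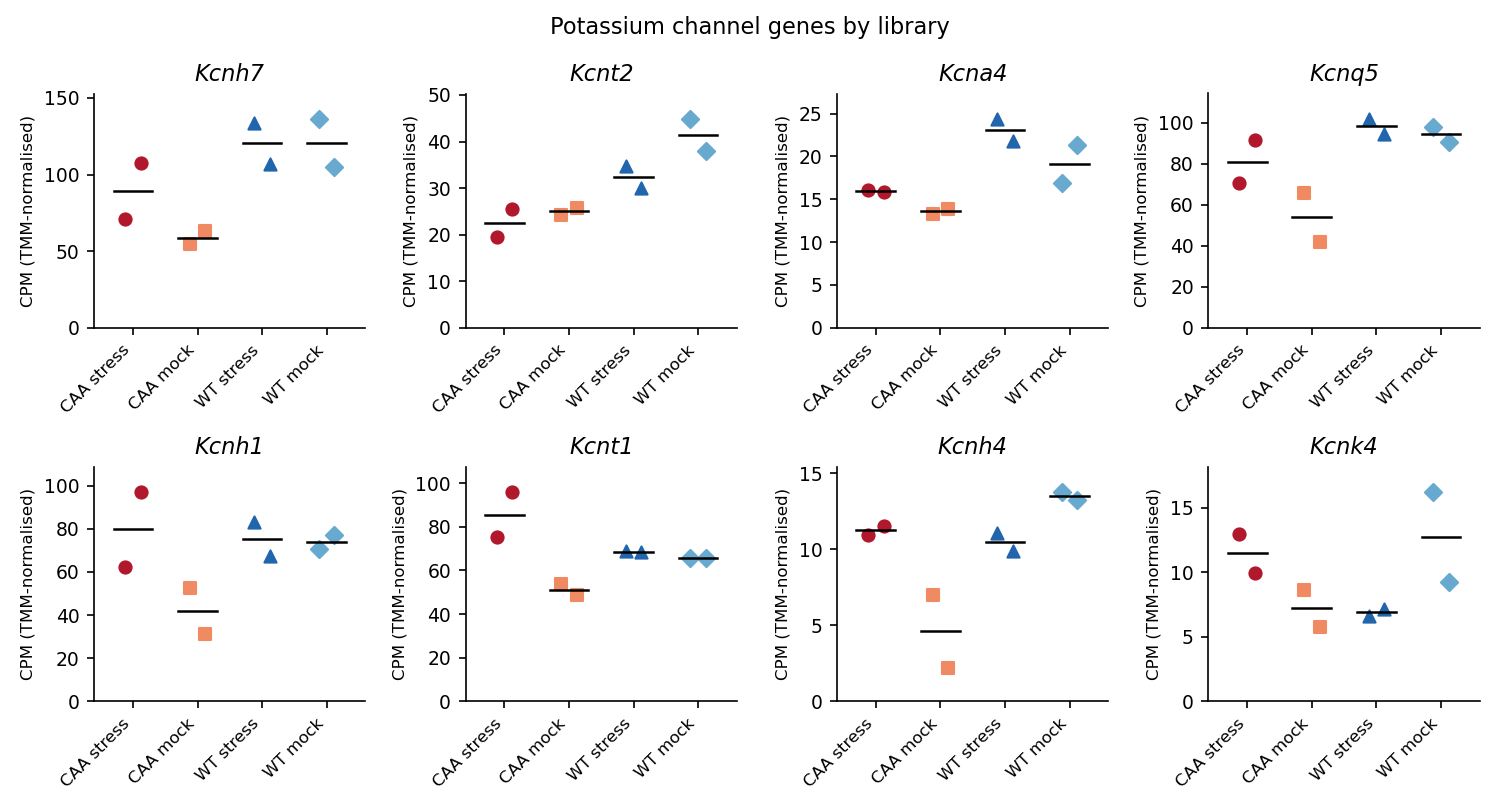
TMM-normalised CPM of 8 potassium channel genes by group, 1 point per library with a bar at the group mean, and axes from 0. For Kcnt2 and Kcna4 all 4 CAA points lie below all 4 WT points, and for Kcnh7, Kcnh1, Kcnt1 and Kcnh4 both CAA mock points lie below all 6 points of the other groups.

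By family, 6 of 8 Kcnh genes had negative fold changes in CAA, with a median of -0.40. All 3 KCNE genes and all 4 Kcnn genes had positive ones, with medians of 0.49 and 0.12. Kcne1l was the KCNE gene at an unadjusted p under 0.05 (0.64 ± 0.25 SE, edgeR adjusted p = 0.586). The pore-forming genes held 11 of the 12 lower genes at that p, the silent subunits 1 (Kcnv1) and the auxiliary genes 0.

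In mock-treated mice more channel genes were lower than higher in CAA. Of the 82 genes 27 had positive and 55 negative fold changes in CAA mock against WT mock brains, with a median of -0.23 (all genes, 0.00), which was -0.15 without WT mock 2 and -0.13 without the low-striatum pair. edgeR called 0 of 82 (0.0116% of all genes), 2 genes were higher and 17 lower at an unadjusted p under 0.05 (1.54% and 2.46% of all genes), and DESeq2 called Kcnh7 and Kcnh4, both lower (0.116% of all genes). The summed level of the 12 excitatory neuron markers was 4937 to 6316 CPM in CAA mock and 6733 to 7748 CPM in WT mock, with 12 of 12 negative fold changes, and that of the 12 myelin markers was 9949 to 16218 CPM in CAA mock and 7843 to 10079 CPM in WT mock, with 12 of 12 positive. The part of these markers in the channel result was not tested.

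Kcnh7 averaged 58.8 ± 5.95 CPM in CAA mock and 121 ± 22.3 CPM in WT mock (SD, n = 2 each), a log2 fold change of -1.04 ± 0.22 (SE; edgeR adjusted p = 0.945, DESeq2 adjusted p = 0.00998). Kcnt2, Kcnh5 (an EAG gene) and Kcnq5 followed with -0.73 ± 0.19, -1.16 ± 0.30 and -0.81 ± 0.21 (SE; edgeR adjusted p = 0.998 for each). For all 4 genes both CAA mock libraries lay below both WT mock libraries, as they did for 28 of the 82 genes and 2871 of all 17182 genes. Kcnh5 had 8.18 and 6.48 CPM in CAA mock, against 19.3 and 13.5 CPM in WT mock. Without the low-striatum pair the fold changes of Kcnh5 and Kcnq5 were -0.73 and -0.47, and without CAA mock 2 alone that of Kcnq5 was -0.53.

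Of the 8 Kcnh genes 7 had negative fold changes, with a median of -0.71, and 4 were lower at an unadjusted p under 0.05 (Kcnh1, Kcnh4, Kcnh5 and Kcnh7). The eighth, Kcnh2, had 0.14 ± 0.19 (SE). Kcnh4 had the largest fold change of the 4, -1.55 ± 0.41 (SE; edgeR adjusted p = 0.998, DESeq2 adjusted p = 0.0490). Among the settings with a single library left out, edgeR called it when CAA mock 1 was the one omitted (-2.62, edgeR adjusted p = 0.0396), which leaves the 2.20 CPM of CAA mock 2 to stand for the group. Without WT mock 1 the 19 genes at an unadjusted p under 0.05 became 9, in males they became 10, and without the low-striatum pair 9, where 3.05%, 3.41% and 2.47% of all genes were at that p (4% with every library).

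**Figure D4:**
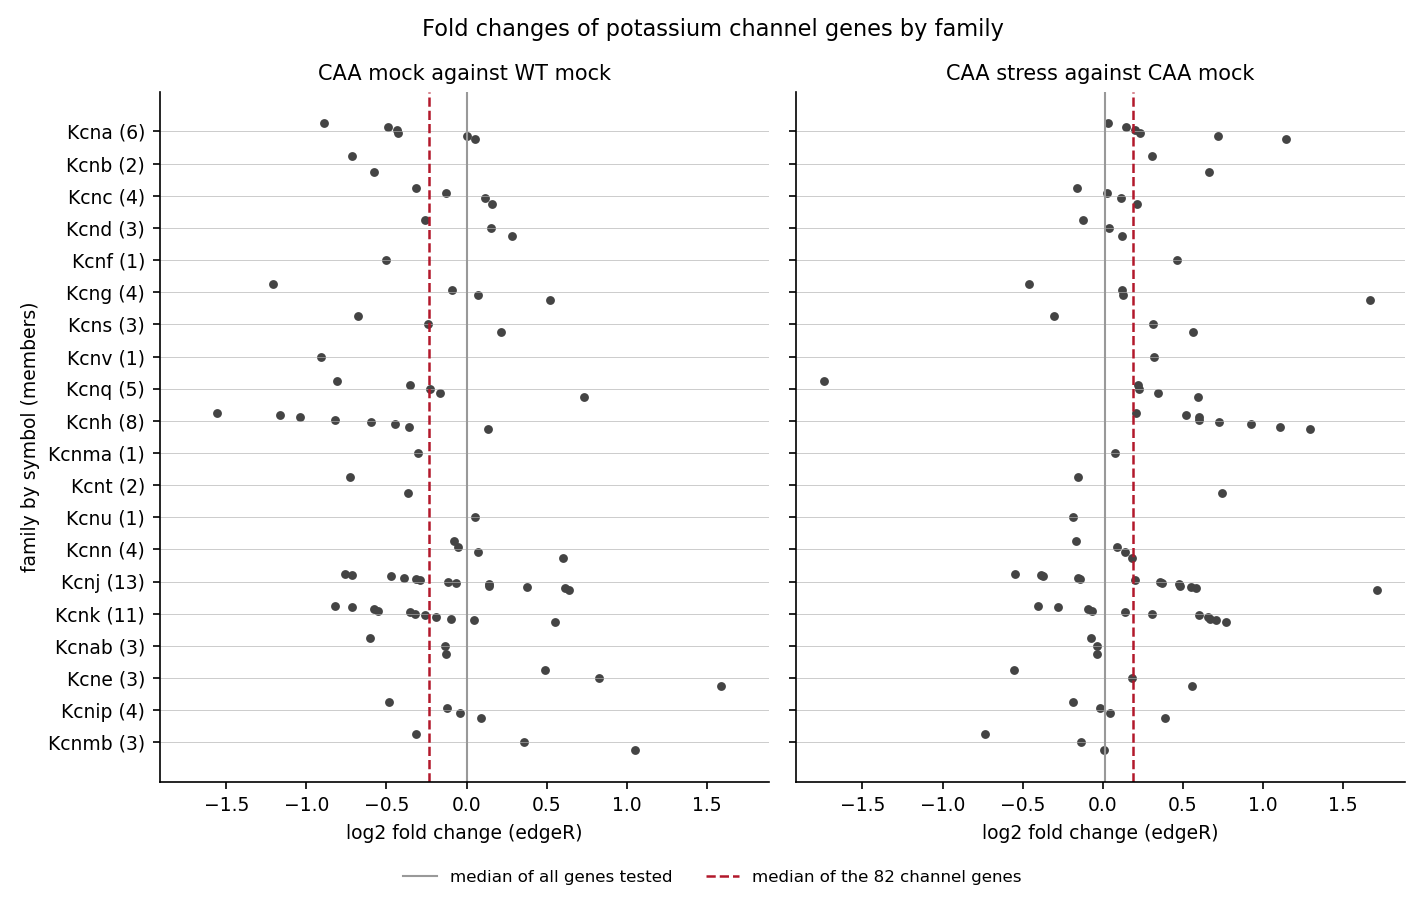
Log2 fold changes of the 82 potassium channel genes by symbol family (number of genes in brackets), 1 point per gene, for CAA mock against WT mock (left) and CAA stress against CAA mock (right), with lines at the median of all genes tested and of the 82 genes. The Kcnh row has 7 of 8 points below 0 on the left and 8 of 8 above 0 on the right, 2 comparisons that share the CAA mock libraries.

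Under stress the CAA and WT brains differed in no common direction. In CAA stress against WT stress 42 of 82 genes were positive and 40 negative, with a median of 0.04, and edgeR called 0 (0.0116% of all genes). The median was -0.03 with a term for sex and 0.14 without WT stress 1. Before adjustment, 4 genes were higher and 5 lower at p under 0.05 (4.14% and 4.09% of all genes), and DESeq2 called 0 of the 82 (0.064% of all genes). The ERG gene Kcnh2 had 58.7 and 61.3 CPM in CAA stress, against 31.8 and 45.9 CPM in WT stress (0.63 ± 0.19 SE, edgeR adjusted p = 0.579). Kcnj3, a G-protein-gated inward rectifier, had 77.0 and 98.8 CPM in CAA stress, against 118 and 130 CPM in WT stress (-0.50 ± 0.19 SE, edgeR adjusted p = 0.579).

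Kcnt2 and Kcna4 both lay lower in CAA stress than in WT stress, each by -0.53 ± 0.19 (SE; edgeR adjusted p = 0.579). For Kcnh2, Kcnj3, Kcnt2 and Kcna4 the groups did not overlap, which was common with 2 libraries a group. Of all 17182 genes 3342 lay above and 3504 below without overlap, and of the 82 genes 17 and 14. The fold change of Kcnh2 was 0.39 without WT stress 1, and those of Kcnj3 and Kcnt2 were -0.32 and -0.33 without CAA stress 1. Without WT stress 1 the 9 genes at an unadjusted p under 0.05 became 2, and with a term for sex they became 4, where 2.8% and 4.7% of all genes were at that p (8.22% with every library and no such term).

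For stress against mock over both genotypes edgeR called 0 of 82 genes (0% of all genes) and DESeq2 called 0 (0.0175% of all genes). At an unadjusted p under 0.05, 5 genes were higher and 1 lower (2.04% and 1.79% of all genes). Fold changes were positive for 51 genes and negative for 31, with a median of 0.10 (all genes, 0.00). That median was 0.035 without CAA stress 2 and 0.037 without WT stress 1. All 8 Kcnh genes were positive, with a median of 0.31. In the same comparison the striatal markers were positive in 12 of 12, the olfactory bulb markers in 9 of 9, the hypothalamic markers in 13 of 13 and the choroid plexus markers in 15 of 16, while the astrocyte and the myelin markers were each negative in 12 of 12. The astrocyte markers summed to 5857 to 7198 CPM in CAA stress and 5883 to 7412 CPM in WT stress, against 7486 to 8377 CPM in CAA mock and 7551 to 7671 CPM in WT mock. The part of these markers in the channel values was not tested. The 4 stress libraries lay above the 4 mock libraries for 1 gene, Kcnt1 (0.96% of all genes), and below them for 1, Kcnj16 (0.867% of all genes).

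Kcnt1 had 75.2 and 96.0 CPM in CAA stress and 68.9 and 68.3 CPM in WT stress, against 53.7 and 48.7 CPM in CAA mock and 66.0 and 65.8 CPM in WT mock. The mock and stress values of WT differed by a few CPM, and the wider gap was in CAA (log2 fold change over both genotypes 0.40 ± 0.11 SE, edgeR adjusted p = 0.920). Kcnj16 averaged 42.5 ± 9.23 CPM in stress and 58.1 ± 4.93 CPM in mock brains (SD, n = 4; -0.45 ± 0.16 SE, edgeR adjusted p = 0.920). The acid-sensitive leak channel gene Kcnk3 and the EAG gene Kcnh1 had 0.39 ± 0.14 and 0.48 ± 0.19 (SE; edgeR adjusted p = 0.920 for each), with overlapping groups. Kcnk3 overlaps a transcript with 1683 counts by 450 bases and Kcnh1 overlaps Hhat by 13449 bases, both on the other strand. Without CAA stress 2 the fold change of Kcnh1 was 0.30, and without CAA mock 2 it was 0.31. The 6 genes at an unadjusted p under 0.05 became 8 with a term for sex, where the share of all genes at that p went from 3.82% to 4.23%. In DESeq2 they became 9 while the share was 3.7%. Count and share thus did not always move together. Both rose when CAA mock 1 or CAA stress 1 was omitted or males alone were used. Both fell when CAA stress 2 or CAA mock 2 was omitted. When WT stress 1 or WT stress 2 was omitted they moved in opposite directions. Fits with a library omitted, or with males alone, leave 1 library in a group, so their counts are not given.

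In WT brains no common direction was seen. WT stress against WT mock gave 42 positive and 40 negative fold changes with a median of 0.01 (-0.08 without WT stress 1 and -0.07 without WT mock 2), and edgeR and DESeq2 each called 0 of 82 (0% of all genes). Before adjustment there were 0 higher genes and 1 lower at p under 0.05 (0.873% and 0.716% of all genes). That gene, Kcnk4, encodes a mechanically gated leak channel and had 6.62 and 7.17 CPM in WT stress, against 16.2 and 9.21 CPM in WT mock (-0.88 ± 0.31 SE, edgeR adjusted p = 0.9999). WT mock 1 was high, and without it the fold change was -0.42.

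Kcnt2 (-0.36 ± 0.19), the G-protein-gated gene Kcnj9 (-0.36 ± 0.19) and Kcnmb1 (1.27 ± 0.67) were next in WT stress against WT mock (SE; edgeR adjusted p = 0.9999 for each). Kcnmb1, a beta subunit of smooth muscle, rested on 10 and 24 counts in WT stress and 8 and 6 counts in WT mock, and overlaps Kcnip1 by 10629 bases. Without WT stress 2 its fold change was 0.50, and without WT mock 1 those of Kcnt2 and Kcnj9 were -0.23 and -0.07. The count of 1 gene at an unadjusted p under 0.05 became 8 without WT mock 2, 5 without WT stress 1 and 4 without WT stress 2, where 4.08%, 2.74% and 1.95% of all genes were at that p (1.59% with every library).

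In CAA brains channel genes took a larger share of counts in the stressed libraries, as given above. CAA stress against CAA mock gave 57 positive and 25 negative fold changes with a median of 0.19 (all genes, 0.01), but edgeR called 0 of 82 (0% of all genes) and DESeq2 0 (0.0815% of all genes). Before adjustment, 13 genes were higher and 2 lower at p under 0.05 (3.68% and 3.27% of all genes). All 8 Kcnh genes were positive with a median of 0.66, 5 of them at that p, and all 6 Kv1 genes were positive with a median of 0.22. This comparison shares the CAA mock libraries with CAA mock against WT mock. The striatal markers were positive in 12 of 12 and the myelin markers negative in 12 of 12, with striatal sums of 1354 to 2180 CPM in CAA stress and 456 to 1794 CPM in CAA mock and myelin sums of 6343 to 14750 CPM in CAA stress and 9949 to 16218 CPM in CAA mock; their part was not tested.

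Kcnt1 averaged 85.6 ± 14.7 CPM in CAA stress and 51.2 ± 3.50 CPM in CAA mock (SD, n = 2 each), a log2 fold change of 0.74 ± 0.16 (SE; edgeR adjusted p = 0.696). Kcnk3 had 0.66 ± 0.19, Kcnh1 0.93 ± 0.27 and Kcnh4 1.29 ± 0.41 (SE; edgeR adjusted p = 0.696 for each). For all 4 genes both CAA stress libraries lay above both CAA mock libraries. They were named for their small p in this comparison, so the separation is no independent support. In CAA stress against CAA mock 27 of the 82 genes and 3149 of all 17182 genes lay above without overlap. Below without overlap lay 5 of the 82 genes and 3262 of all genes. Kcnh1 had 62.4 and 97.0 CPM in CAA stress, against 52.6 and 31.1 CPM in CAA mock. Without CAA stress 2 the 15 genes at an unadjusted p under 0.05 became 5, where 2.42% of all genes were at that p (6.94% with every library), and the fold change of Kcnh1 was 0.57. Without CAA mock 2 the fold changes of Kcnh1 and Kcnh4 were 0.60 and 0.68, and without CAA mock 1 that of Kcnh4 was 2.35.

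The test of whether the stress effect differed between genotypes, the interaction, called 0 of 82 genes in edgeR (0% of all genes) and 0 in DESeq2 (0.0233% of all genes). At an unadjusted p under 0.05, 11 genes had a stress effect higher in CAA than in WT and 0 had one lower (1.98% and 1.48% of all genes), and the median of the 82 genes was 0.19 (all genes, 0.00). The excitatory neuron markers were positive in 11 of 12 in the same test, with a median of 0.49 and 4 of them at that p, and the choroid plexus markers were negative in 15 of 16, with a median of -0.96. Excitatory neuron sums were 6041 to 7088 CPM in CAA stress, 4937 to 6316 CPM in CAA mock, 5939 to 6739 CPM in WT stress and 6733 to 7748 CPM in WT mock, and the part of these markers was not tested. Kcnk4 had 1.55 ± 0.44, with 13.0 and 9.91 CPM in CAA stress, 8.64 and 5.75 CPM in CAA mock, 6.62 and 7.17 CPM in WT stress and 16.2 and 9.21 CPM in WT mock (SE; edgeR adjusted p = 0.995). It was higher with stress in CAA and lower with stress in WT.

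Kcnj9 had 81.7 and 89.4 CPM in CAA stress, 54.6 and 68.3 CPM in CAA mock, 82.4 and 75.0 CPM in WT stress and 119 and 82.5 CPM in WT mock, an interaction of 0.83 ± 0.27. Kcnt1 and Kcnh4 had 0.68 ± 0.23 and 1.66 ± 0.56 (SE; edgeR adjusted p = 0.995 for these 3 genes). The 11 genes became 7 with a term for sex, where the share of all genes at that p went from 3.46% to 3.22%. With limma on log2 FPKM (pseudocount 1) they became 9 while the share was 3.78%. Count and share thus did not always move together. Both fell without CAA stress 2, WT mock 1 or the low-striatum pair, and both rose without CAA mock 1. In males alone and without WT stress 2 the count fell while the share rose. These last fits leave 1 library in a group, so their counts are not given. Without WT mock 1 the interactions of Kcnk4 and Kcnj9 were 1.09 and 0.55, and in males that of Kcnk4 was 0.89. The interaction of Kcnh4 was 1.05 without CAA mock 2 and 2.72 without CAA mock 1.

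Of 41 other genes that handle potassium or bind its channels (pumps, cotransporters, HCN channels, anchoring proteins), 40 were tested and 0 passed in edgeR in any of the 7 comparisons; DESeq2 also called 0 of them. Before adjustment, 1 was higher and 5 were lower at p under 0.05 in CAA against WT over both treatments, 15% of the 40 (8.38% of all genes). The counts were 0 and 3 in CAA mock against WT mock, 7.5% of the 40 (4% of all genes), and 2 and 3 in CAA stress against WT stress, 12.5% (8.22% of all genes). For stress against mock they were 1 and 1, 5% (3.82% of all genes), for WT stress against WT mock 0 and 0 (1.59% of all genes), and for CAA stress against CAA mock 4 and 1, 12.5% (6.94% of all genes). The interaction had 3 and 0, 7.5% (3.46% of all genes). With 40 genes these shares rest on 0 to 6 genes each, and those for stress against mock and CAA stress against WT stress lay near the share of all genes. Hcn2, a channel for the hyperpolarisation-activated current, had 314 and 246 CPM in CAA stress, 236 and 245 CPM in CAA mock, 161 and 192 CPM in WT stress and 217 and 198 CPM in WT mock. Each CAA value lay above each WT value (0.44 ± 0.12 SE, edgeR adjusted p = 0.508). Of the 40 genes 1 lay above and 3 below in this way, against 2% and 2.76% of all genes. Hcn2 was named for its small p in this comparison, so the separation is no independent support. The channel-anchoring scaffold Dlg2 averaged lower in CAA (-0.34 ± 0.10 SE, edgeR adjusted p = 0.531).

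Aqp4, the water channel of astrocyte endfeet where Kcnj10 also sits, had 174 and 135 CPM in CAA stress and 166 and 134 CPM in WT stress, against 186 and 300 CPM in CAA mock and 191 and 188 CPM in WT mock. Its stress values lay below its mock values without overlap (-0.49 ± 0.16 SE, edgeR adjusted p = 0.920). Of the 40 other genes 0 lay above and 1 below in this way, against 0.96% and 0.867% of all genes. Aqp4 was named for its small p, so the separation is no independent support. In CAA stress against CAA mock its fold change was -0.65 ± 0.23 (SE, edgeR adjusted p = 0.696). Without CAA mock 2, the library with the highest astrocyte sum, these 2 fold changes were -0.30 and -0.27.

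Of the other genes with the smallest p, Hcn4 was higher in stress than in mock brains over both genotypes (0.70 ± 0.23 SE, edgeR adjusted p = 0.920), by 0.42 without the low-striatum pair. Lrrc55, an auxiliary subunit of calcium-activated channels, had 14.3 and 14.1 CPM in CAA stress, against 19.4 and 29.0 CPM in WT stress (-0.77 ± 0.25 SE, edgeR adjusted p = 0.579; -0.45 without WT stress 2). Abcc8, the sulfonylurea receptor of ATP-sensitive channels, had 8.53 and 11.5 CPM in CAA mock, against 20.6 and 12.1 CPM in WT mock (-0.70 ± 0.29 SE, edgeR adjusted p = 0.998; -0.27 without WT mock 1). In WT stress against WT mock these 2 genes had 0.50 ± 0.25 and -0.52 ± 0.29 (SE; edgeR adjusted p = 0.9999 for both), which were 0.18 for Lrrc55 without WT stress 2 and -0.09 for Abcc8 without WT mock 1. The chloride-extruding cotransporter gene Slc12a5 had an interaction of 0.69 ± 0.24 (SE; edgeR adjusted p = 0.995), and of 0.39 without the low-striatum pair. None of these passed the threshold in edgeR.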

How the data were processed

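RNA from 8 mouse brain samples was sequenced. The deposited table of raw counts per gene comes from the authors' use of featureCounts 1.5.0-p3 after HISAT2 2.0.5 on mm10, per the submitters' processing notes, and the authors also deposited FPKM per gene; their annotation release and use of strand are not stated. Samples were grouped by title and treatment label. The titles number the samples without saying that each is a separate animal. CAA stress 1 and WT mock 1 had 0 counts of Y-linked genes, against 2340 in CAA stress 2 and 2833 in WT mock 2. The 2 libraries of each of these groups thus come from different mice. For CAA mock and WT stress this is open, so p-values reflect spread that may in part be technical. An exact two-sided permutation test of 2 against 2 cannot go below 0.333. Libraries held 17275201 to 18894657 counts and no 2 agreed within sampling noise (chi-square over its degrees of freedom 8.31 to 70.4 across all pairs).

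Counts were tested with edgeR 4.0.16 (R 4.3.3): filterByExpr on the groups (minimum count 10, total 15; 17182 genes), TMM, a robust quasi-likelihood fit of 4 group means over all 8 libraries (4 residual degrees of freedom), and Benjamini-Hochberg adjustment over all genes tested at 0.05. The procedure was first tested on simulated counts. CPM are TMM-normalised. Alternatives were DESeq2 1.42.0, DESeq2 size factors, no count filter, limma 3.58.1 on log2 FPKM (pseudocount 1 or 0.1), only the libraries compared, the replicate number as a block and each library left out in turn (a group then down to 1 library is assumed to spread like the rest). A term for sex, males alone and the omission of the low-striatum pair were added after the data were seen, as was a crossed block. The genes, lists and comparisons were chosen with earlier results of these data known. The text names, per comparison, genes that passed or, where fewer than 5 did, the 5 of smallest p, the top gene of each family, the 10 most variable genes of at least 1 mean CPM and a fixed set of 26 well-known channel genes; of the other potassium handling genes it names those that passed or else the 2 of smallest p. Further genes that the rule names are not reported here. Others were chosen after their values were seen. Coordinates are mm10; coding sequences are from GENCODE vM21.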

Additional observations from a re-analysis of the deposited data

How the results depend on the processing

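The count of potassium channel genes past the threshold was 0 in each of the 7 comparisons, and moved in 4. Without the filter on low counts edgeR called 5 genes for CAA against WT over both treatments (Kcnh7, Kcnv1, Kcnq5, Kcnt2 and Kcnh4, all lower), 8 for CAA mock against WT mock (all lower), 4 for CAA stress against CAA mock (Kcnh1, Kcnh3, Kcnh4 and Kcnt1, all higher) and 1 for the interaction (Kcnh4, positive). Calls over all genes also rose at that setting, to 223, 82, 112 and 17 of 29446, and those in the direction of the channel genes were 0.248%, 0.183%, 0.238% and 0.0374% of all genes. DESeq2 called 2 for CAA against WT over both treatments and 2 for CAA mock against WT mock. Leaving out each library in turn gave 0 to 1 for CAA mock against WT mock and 0 for the others. Under every other setting run the count was 0. The cause of the differences between tools and filters was not tested. With the replicate number as a block the count stayed 0 in all 7 comparisons. Deviations of same-numbered libraries correlated at -0.27 to 0.14. With 2 libraries a group that also differ in region markers, these values cannot decide whether the numbers mark pairs. The numbers of WT mock were also crossed, as its correlations of -0.27 with CAA mock and -0.13 with WT stress would allow. Its correlation of 0.14 with CAA stress goes the other way. The count was again 0 in the comparisons that use WT mock, the only ones run with this crossing. For 49 fold changes of named genes, 944 values under other settings held 0 reversals of sign, and 18 passed the threshold, all without the filter or in DESeq2. The median over the 82 genes kept its sign in all settings for CAA against WT over both treatments (-0.14 to -0.03) for CAA mock against WT mock (-0.24 to -0.13), for CAA stress against CAA mock (0.14 to 0.22), for stress against mock (0.035 to 0.14) and for the interaction (0.13 to 0.29). It changed sign for CAA stress against WT stress (-0.03 to 0.14, 16 of 19 settings with the sign of 0.04) and for WT stress against WT mock (-0.08 to 0.02, 16 of 20 with the sign of 0.01). With 2 libraries a group, region markers that differ between replicates and low counts of some genes limit what could be detected.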
